A study of Mus musculus with 28 samples.

Results

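Common myeloid progenitors (CMP) were compared with the midpoint of the sorts they are known to give rise to, granulocyte-macrophage progenitors (GMP) and megakaryocyte-erythroid progenitors (MEP), in normal mouse bone marrow. The comparison takes every array that the labels name as CMP, GMP or MEP in the sorted experiment, which is 11 arrays of the 28 in the series. CMP is the Lin-, sca-, kit+, FCR+, CD34low sort (4 arrays). GMP is the sort with the same lineage, sca and kit markers that was FCR+ and CD34high (4 arrays), and MEP is the one that was FCR- and CD34- (3 arrays). The other 11 sorted arrays, 5 of a sort enriched in stem cells (HSC; Lin-, sca+, kit+) and 6 of leukaemic cells with the GMP sort markers (L-GMP), helped to estimate the spread and are quoted as levels only. Strain, sex, age and the number of animals behind a sample are not given in the sources used here. Since nothing says that replicates came from separate animals, p-values measure the spread between these samples, which may be technical.

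Blood formation in the adult marrow is usually drawn as a tree, in which CMP stand at the fork between the granulocyte and monocyte branch, whose progenitor is GMP, and the erythrocyte and platelet branch, whose progenitor is MEP. Progenitors at such forks are known to hold low levels of genes of both branches at the same time, which is called lineage priming. A sort defined by a few surface markers can be a mixture of cells already set on one branch or a population with genes of its own. The comparison asks, gene by gene, whether the CMP level lay midway between the GMP and MEP levels, on either side of the midpoint but still between them, or outside the range that both span.

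Values are probe set intensities on the log2 scale, scaled to a common level per array, with low values set to a floor of 5.27. In the 11 arrays, medians of the deposited intensities lay between 90.9 and 109.6, and correlations across genes between arrays of one group ran at r from 0.943 to 0.983, where genes are not independent replicates. The number of arrays, 3 or 4 per group, limits the precision. A shift in total RNA per cell is lost in scaling, and in a sorted population fewer cells of a type and less RNA per cell cannot be told apart. The arrays were not alike within groups in 3 respects that touch results below. The mean log2 level of 33 immediate early and stress genes was 7.68 on CMP replicate 1, against 9.63 to 9.78 on the other CMP arrays, and 7.47 on GMP replicate 1, against 8.80 to 9.14 on the other GMP arrays. The mean of 24 erythroid genes was 8.42 on CMP replicate 4 and 8.08 on CMP replicate 1, against 7.75 and 7.64 on the other CMP arrays. Genes higher in CMP than in both other sorts were often lowest on MEP replicate 3 among the MEP arrays.

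The genes behind the sort markers matched the labels in part. Kit, the stem cell factor receptor used in all 3 gates, averaged 9.35 ± 0.15 in CMP, against 8.72 ± 0.17 in GMP and 9.53 ± 0.28 in MEP (SD; n = 4, 4 and 3), and was not called against the midpoint (log2 difference 0.22 ± 0.12, SE; limma, adjusted p = 0.315). Cd34, which encodes the sialomucin behind the CD34 gate, measured 9.74, 9.81, 9.50 and 9.22 in CMP, against 8.80 to 9.11 in GMP and 6.86, 6.65 and 5.32 in MEP. CMP, labelled CD34low, thus had Cd34 levels above those of every array of GMP, labelled CD34high, although the difference between these sorts was not called (0.62 ± 0.26, limma, adjusted p = 0.12). Fcgr3 encodes the low-affinity immunoglobulin receptor Fc gamma RIII. It was at the floor on 2 of 4 CMP arrays and at 5.72 and 5.61 on the others, against 9.19 to 9.97 in GMP and the floor on all MEP arrays. Fcgr2b, the inhibitory Fc gamma receptor, averaged 8.58 ± 0.16 in CMP, against 10.17 ± 0.25 in GMP and 6.95 ± 0.54 in MEP. CMP carried the FCR+ label, and of these receptor genes Fcgr2b lay midway between the sorts (0.02 ± 0.17, adjusted p = 0.968) while Fcgr3 lay near MEP. Ly6a, a gene of the sca antigen, had no probe set naming it alone and was not tested.

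Of 8422 genes tested, 990 (11.8%) were called against the midpoint of GMP and MEP at a limma adjusted p under 0.05. CMP was higher than the midpoint for 647 genes (7.68%) and lower for 343 (4.07%). The median difference over all genes was -0.01 on the log2 scale. A stricter test asked for CMP to differ from GMP and from MEP in the same direction, taking the larger of both p-values, and called 93 genes (1.1%), of which 77 (0.914%) were above both sorts and 16 (0.19%) below both. The calls lying between the group means of GMP and MEP, where CMP leaned to one of them, numbered 98 and 49 among genes higher in GMP and 22 and 45 among genes higher in MEP. In each pair the first count is of genes with CMP nearer the higher sort. A further 450 called genes had a CMP mean above both other means and 233 a mean below both, without passing the stricter test. For comparison, 2314 genes (27.5%) were called between GMP and MEP. Leaving out CMP replicate 3 lowered the calls against the midpoint to 636 and those outside both sorts to 43, and leaving out CMP replicate 2 lowered the calls outside both sorts to 51. A fit of only the 11 arrays, without HSC and L-GMP to estimate the spread, called 24 genes outside both sorts. In that fit 15 of the outside calls of genes named by the rule given further on were kept and 15 were lost.

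**Figure D1:**
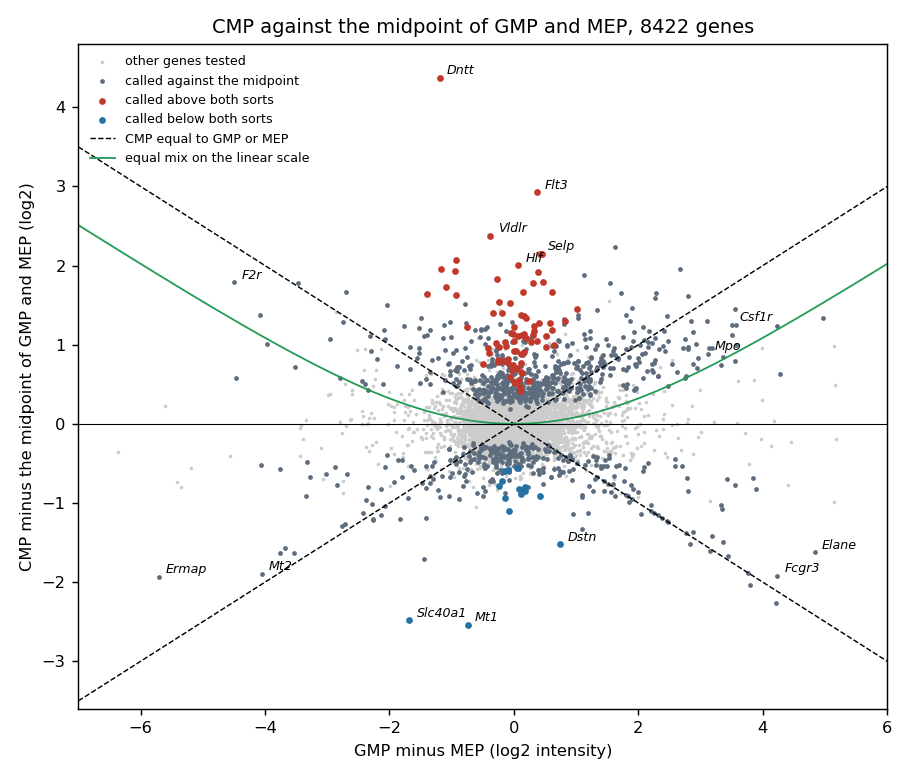
Each point is 1 of 8422 genes, with the GMP minus MEP difference on the x axis and the CMP difference from their midpoint on the y axis, both in log2 intensity. Dashed lines mark CMP equal to GMP or to MEP, so that the 77 red genes above both sorts and the 16 blue genes below both lie in the upper and lower wedges, and the green curve marks an equal mix of both sorts on the linear scale.

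The genes above both sorts were led by Dntt and Flt3, genes known from the earliest lymphoid progenitors. Hlf, a transcription factor of stem cells, and Selp and Plek, genes known from platelets, were also among the 12 with the highest differences. For 76 of the 77 genes every CMP array lay above every GMP and MEP array. The genes were picked by these same values, so the separation describes them and is no further support. The share of all genes so separated, in either direction, was not computed. Of the 77, 47 differed at least 2-fold and 7 at least 4-fold from the midpoint. Dntt encodes terminal deoxynucleotidyl transferase, the enzyme that adds untemplated bases to rearranging antigen receptor genes. It measured 10.14, 10.43, 10.35 and 10.82 in CMP, against the floor on 3 GMP arrays and 6.06 on the other, and 7.49, 6.86 and 5.64 in MEP. The difference from the midpoint was 4.37 ± 0.23 (SE), or 20.7-fold, with a limma adjusted p of 8.64e-08 for lying above both sorts, and it was the highest difference of all 8422 genes. With 3 GMP arrays at the floor the size of this difference depends on the floor, and it was 3.55 and 4.66 with floors at the 50th and 10th percentiles. All 3 probe sets of Dntt were called, and their mean gave 2.74. Flt3, the receptor for FLT3 ligand on multipotent and lymphoid progenitors, measured 9.82, 10.01, 10.03 and 9.66 in CMP, against 6.46 to 7.77 in GMP and 6.29 to 7.06 in MEP. Its difference of 2.92 ± 0.28, or 7.59-fold (limma, adjusted p = 3.36e-05 above both sorts), left no overlap between CMP and either sort.

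The other called lymphoid genes differed more from MEP than from GMP. Of 21 listed genes of lymphoid priming, 10 were tested, 6 were called higher than the midpoint and 0 lower, against 7.68% and 4.07% of all genes, with a median difference of 1.48 over the 10. Besides Dntt, Flt3 and Ighm these were Satb1, Notch1 and Cd27. Satb1, a chromatin organiser of T cell development, measured 9.57 to 10.33 in CMP, against 8.78 to 9.21 in GMP and 6.43 to 8.01 in MEP. Notch1, the receptor that sets T cell fate, measured 9.48 to 10.06 in CMP, against 9.17 to 9.47 in GMP and 6.27 to 7.52 in MEP. Cd27, a costimulatory receptor of the tumour necrosis factor family, measured 9.60 to 9.98 in CMP, against 8.40 to 9.26 in GMP and 6.16 to 7.95 in MEP. Their differences from the midpoint were 1.79 ± 0.30, 1.66 ± 0.19 and 1.66 ± 0.23 (limma, adjusted p = 0.000351, 3.84e-06 and 4.21e-05), and none of them passed the test for lying above both sorts.

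Genes of committed lymphocytes did not move as one group. Ighm, the immunoglobulin mu chain, measured 10.16 to 10.73 in CMP, against 10.15 to 10.68 in GMP and 6.50, 6.94 and 9.34 in MEP, and its call (1.30 ± 0.39, limma, adjusted p = 0.0308) ended when any single CMP array was left out. Of its 6 probe sets 2 were called. Rag1, a recombinase of antigen receptor genes, Pax5, the factor of B cell identity, and Cd3e, Cd4 and Cd8a of T cells were not called, with differences between -0.15 and 0.13. Of 10 listed B cell genes 4 were tested, with 2 called higher (Ighm and Cd79b), and of 14 T and NK cell genes 5 were tested, with 1 called higher (Cd27) and 1 lower (Gzmb). The shares of all genes called were 7.68% higher and 4.07% lower. The log2 of the summed B cell list was 10.78 to 11.13 in CMP, against 10.82 to 11.18 in GMP and 9.13 to 10.04 in MEP, and its part in the lymphoid result was not tested.

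Stem cell regulators formed the next group. Hlf, a leucine zipper factor of stem cells, measured 9.43, 9.51, 9.55 and 9.12 in CMP, against 7.39, 7.60, 7.59 and 7.18 in GMP and 7.72, 7.90 and 6.47 in MEP. The groups did not overlap, and the difference was 4.01-fold, with an SE of 0.20 on the log2 scale (limma, adjusted p = 4.12e-05 above both sorts). Meis1, the cofactor of HOXA9, measured 9.97, 9.86, 9.90 and 9.69 in CMP, against 7.23 to 7.71 in GMP and a mean of 8.91 ± 0.79 in MEP (SD, n = 3), where replicate 3 was lowest. CMP lay 1.64 ± 0.18 above the midpoint, but only 0.94 ± 0.22 above MEP, and the call above both sorts (adjusted p = 0.0371) ended in 11 of 24 alternatives, among them the fit without MEP replicate 3. Hmga2, an architectural chromatin protein of fetal stem cells, measured 8.24, 9.13, 9.22 and 7.92 in CMP, against 6.02 to 7.31 in GMP and 5.27 to 6.88 in MEP (2.15 ± 0.30, limma, adjusted p = 0.00387 above both sorts). Its call above both sorts ended in the fit of only the 11 arrays (limma, adjusted p = 0.124). Zfp521, a zinc finger factor of early progenitors, and Mef2c, a factor of lymphoid and megakaryocyte development, were also above both sorts, by 1.54 ± 0.15 and 1.15 ± 0.23.

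Of 29 listed stem cell genes, 21 were tested, and 10 were called higher and 1 lower than the midpoint, against 7.68% and 4.07% of all genes. The median difference was 0.48 over the list and -0.01 over all genes. Tek, the angiopoietin receptor, Hoxa9, a homeobox factor, Sox4, an HMG box factor, Gata2, a zinc finger factor of stem cells and mast cells, Rbpms, Ifitm1, Esam and Tal1 were the other higher genes, by 0.51 to 0.97. Mllt3, a subunit of a transcription elongation complex, was the lower gene (-0.45 ± 0.12, limma, adjusted p = 0.0172). The defining stem cell gene Procr, the protein C receptor, was at 5.27, 5.43, 5.84 and 5.48 in CMP, against the floor on every GMP and MEP array and 9.21 in HSC, and was not called. Mycn was at the floor on all 11 arrays.

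Most genes above both sorts had a higher mean in HSC than in CMP. Their median level was 8.63 in CMP, against 7.14 in GMP and 6.86 in MEP, and 9.27 in HSC. The CMP level was a median 61.5% of the HSC level, computed from mean log2 levels, and ranged from 12.9% for Wfdc18 to 199.5%. For 13 of the 77 genes it exceeded the HSC level. The filter could keep a gene through its HSC arrays alone, which favours genes high in HSC among the 77. With a filter on all arrays of 1 of the 3 sorts, 59 genes were above both sorts. The share of all genes with a higher mean in HSC than in CMP was not computed. Il18, an inflammatory cytokine, stood at 21.9% of HSC and Vldlr, a lipoprotein receptor, at 26.5%. Hlf stood at 31.4%, Flt3 at 49.6%, Dntt at 58.4% and Meis1 at 58.6%, while Hmga2 (99.1%) and H2-DMa (103.2%) were near the HSC level. In L-GMP the median of the 77 genes was 5.66, and 24 of them were at the floor on all 6 arrays. Of the 62 genes without tied values among the MEP arrays, 56 (90.3%) were lowest on MEP replicate 3, against 41.6% of all untied genes, and what this contributed to the calls was not tested beyond leaving that array out, which gave 64 calls outside both sorts, 57 of them shared with the 93.

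**Figure D2:**
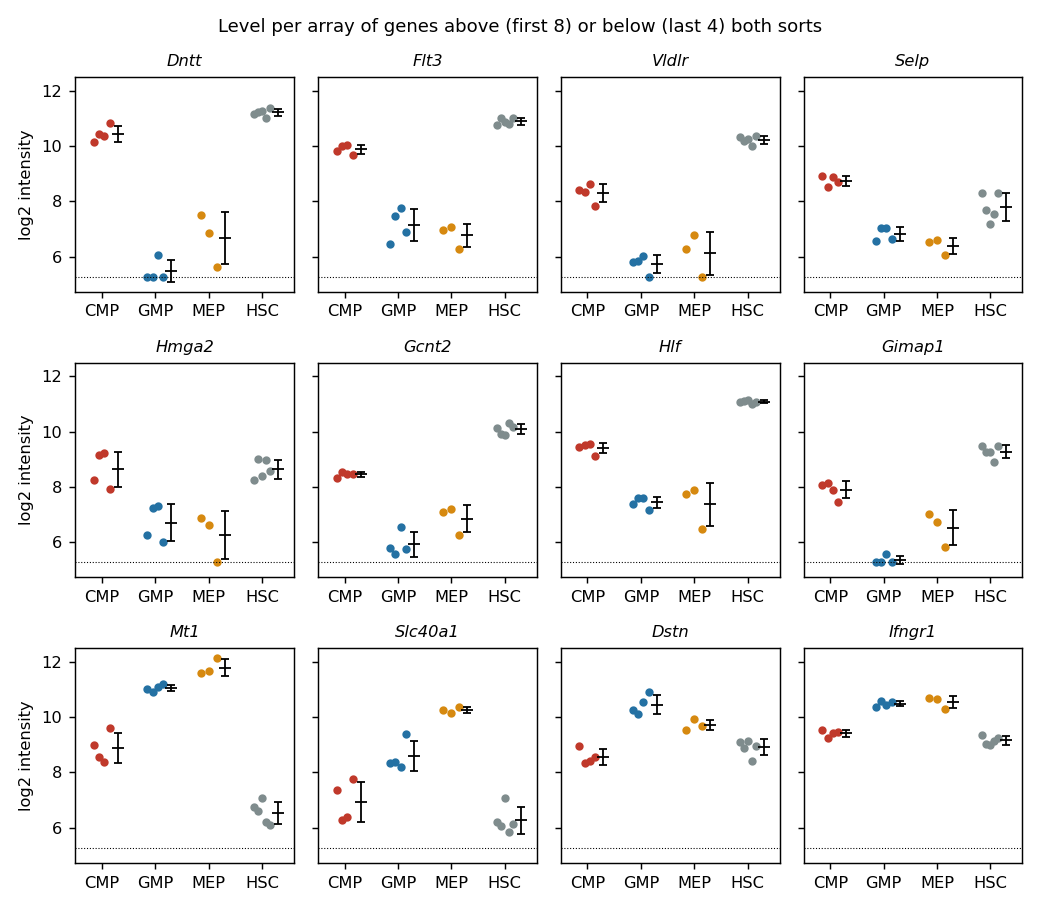
Log2 intensity on every array of CMP, GMP, MEP and HSC for 8 genes above both sorts and 4 below both, with the mean and SD beside the points and the floor of 5.27 dotted. All CMP points lie above the GMP and MEP points in the upper panels and below them in the last row, and Selp is the gene of the upper panels whose mean is higher in CMP than in HSC.

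Other genes with large differences above both sorts had varied functions. Vldlr measured 8.40, 8.35, 8.61 and 7.84 in CMP, against 5.27 to 6.02 in GMP and 6.29, 6.78 and 5.27 in MEP. Its difference was 2.38 ± 0.22, or 5.19-fold (limma, adjusted p = 6.55e-05 above both sorts), but of its 3 probe sets only this one was called. Gcnt2, which builds branched poly-N-acetyllactosamine chains, measured 8.32 to 8.52 in CMP, against 5.56 to 6.56 in GMP and 6.27 to 7.18 in MEP (2.07 ± 0.16). Gimap1, a GTPase known from lymphocytes, measured 8.08, 8.13, 7.89 and 7.47 in CMP, against the floor on 3 GMP arrays and 5.57 on the other, and 7.02, 6.74 and 5.80 in MEP (1.96 ± 0.17). Its family member Gimap6, at the floor in GMP throughout, was called as well (1.73 ± 0.15). Basp1, a membrane-bound signalling protein, Epb41l4b, a cytoskeletal linker, and Itih5, a secreted matrix protein, completed the 12 largest differences, with 1.92 ± 0.25, 1.83 ± 0.17 and 1.79 ± 0.33. Itih5 was the least stable of them, since its call above both sorts (adjusted p = 0.0446) ended in 15 of 24 alternatives. The calls of Basp1 and Gimap1 above both sorts ended in the fit of only the 11 arrays. Stxbp4, Wfdc18 and Hdgfl3 were at the floor on all GMP and MEP arrays and at least 2.33-fold, 2.07-fold and 1.89-fold higher in CMP.

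Cytokine receptors were called in both directions. Of 22 listed receptors 19 were tested, with 8 called higher and 2 lower than the midpoint (all genes, 7.68% and 4.07%) and a median of 0.40. Besides Flt3, the interleukin receptors Il10ra and Il1r1 were above both sorts. Il10ra measured 6.46 to 7.03 in CMP, against 5.41 to 6.29 in GMP and the floor in MEP (1.28 ± 0.15), and its levels are near the floor throughout. Csf1r, the receptor of macrophage colony-stimulating factor, Il6ra, the interleukin 6 receptor, and Csf3r, the receptor of granulocyte colony-stimulating factor, lay between the sorts and near GMP. The type I receptor Tgfbr1 and the type II receptor Tgfbr2 of transforming growth factor beta were called by 0.42 and 0.90. Epor, the erythropoietin receptor, was lower (-0.57 ± 0.18), and Ifngr1 was the one receptor below both sorts.

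H2-DMa, which loads peptides onto MHC class II, measured 10.12, 10.14, 9.94 and 9.93 in CMP, against 9.04 to 9.26 in GMP and 8.65 to 9.02 in MEP (1.03 ± 0.10; limma, adjusted p = 0.000121 above both sorts). The class II chains themselves did not follow it. H2-Aa measured 8.03, 7.37, 7.32 and 9.52 in CMP, against 7.40 to 8.06 in GMP and 8.97, 8.83 and 10.53 in MEP, and H2-Eb1 and Cd74 likewise were not called. Tcf4, a helix-loop-helix factor of plasmacytoid dendritic cells and B cells, was above both sorts (0.82 ± 0.14), and the call ended with the replicate block and 5 other alternatives. Zbtb46, a factor of conventional dendritic cells, was at the floor on every CMP and GMP array and at 6.99 to 7.66 in MEP, so that MEP was the high sort.

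Megakaryocyte and platelet genes were the list with the second highest median among the 23, at 0.73. Of 22 listed genes 12 were tested, with 7 called higher and 0 lower, where all genes gave 7.68% and 4.07%. Selp encodes P-selectin, the adhesion receptor stored in platelet and endothelial granules. It measured 8.92, 8.51, 8.86 and 8.70 in CMP, against 6.56, 7.03, 7.02 and 6.63 in GMP and 6.52, 6.59 and 6.05 in MEP. The difference was 2.15 ± 0.17, or 4.44-fold (limma, adjusted p = 6.88e-06 above both sorts), with both probe sets called. Its CMP mean was also above the HSC mean of 7.80, at 193.4%. Plek, the protein kinase C substrate pleckstrin of platelets, measured 9.37, 9.27, 9.08 and 9.55 in CMP, against 6.66 to 7.25 in GMP and 7.80 to 7.92 in MEP (1.93 ± 0.17, limma, adjusted p = 0.000505 above both sorts). For both genes the CMP arrays lay above all others of the comparison.

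The remaining platelet genes were not called above both sorts. F2r, the thrombin receptor PAR1, measured 11.95, 11.63, 11.51 and 12.23 in CMP, against 7.53 to 8.28 in GMP and 12.19 to 12.40 in MEP. It had the highest positive difference among called genes lying between the sorts (1.79 ± 0.13, limma, adjusted p = 1.11e-08), as CMP was 4.04 ± 0.14 above GMP and 0.46 below MEP. Itga2b, the integrin alpha IIb chain of the fibrinogen receptor, measured 10.98, 10.82, 10.93 and 11.32 in CMP, against a mean of 9.18 ± 0.13 (SD, n = 4) in GMP and 10.36 to 10.91 in MEP (1.11 ± 0.20). Pf4, platelet factor 4, measured 11.11, 10.39, 9.90 and 12.36 in CMP, against 7.08, 6.52, 6.46 and 9.66 in GMP and 10.76, 10.70 and 11.25 in MEP. It was highest on replicate 4 in both CMP and GMP, and its call (1.78 ± 0.46, adjusted p = 0.0134) ended without CMP replicate 4. Vwf, the von Willebrand factor, was at 8.94 on CMP replicate 4 and at 5.27 to 6.08 on the other CMP arrays, against the floor in GMP and 7.01 to 7.38 in MEP. Without CMP replicate 4 Vwf was lower than the midpoint (-0.59, limma, adjusted p = 0.00759). The list without that array held 5 higher and 1 lower of 11 tested genes.

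The 16 genes below both sorts were led by Mt1 and Slc40a1, genes of metal handling, and by Dstn, an actin filament severing protein. Every CMP array lay below every GMP and MEP array for all 16, which were likewise picked by these same values. Mt1 encodes a metallothionein, a small cysteine-rich protein that binds zinc and copper. It measured 8.99, 8.54, 8.39 and 9.60 in CMP, against 10.92 to 11.21 in GMP and 11.59, 11.65 and 12.14 in MEP. The difference from the midpoint was -2.54 ± 0.20, a 5.82-fold lower level (limma, adjusted p = 6.88e-06 below both sorts). In HSC it averaged 6.54, so the CMP level was 505.6% of that in HSC. Mt2, its neighbour on the chromosome, differed in the pattern across sorts. It measured 7.31, 7.18, 7.11 and 8.53 in CMP, against 7.20 to 7.57 in GMP and 11.15, 11.07 and 12.13 in MEP, so that CMP and GMP overlapped and MEP stood apart (-1.89 ± 0.26 against the midpoint). On both genes CMP replicate 4 was the highest CMP array.

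Metallothionein genes are known to be switched on by the zinc sensor MTF1 through metal response elements upstream of the start. The 250 bases before the start of each gene are shown because the genes share this regulator as background and yet differed in GMP. They are on the plus strand of the RefSeq GRCm38.p6 assembly, at chr8:94178839-94179088 for Mt1 and chr8:94172368-94172617 for Mt2, with matches to TGCGCNC or TGCACNC on either strand in capitals.
Mt1: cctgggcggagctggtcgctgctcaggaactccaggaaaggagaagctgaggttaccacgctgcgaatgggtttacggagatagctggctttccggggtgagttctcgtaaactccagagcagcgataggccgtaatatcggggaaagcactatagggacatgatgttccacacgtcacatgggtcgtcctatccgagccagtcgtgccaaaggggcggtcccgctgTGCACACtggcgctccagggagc
Mt2: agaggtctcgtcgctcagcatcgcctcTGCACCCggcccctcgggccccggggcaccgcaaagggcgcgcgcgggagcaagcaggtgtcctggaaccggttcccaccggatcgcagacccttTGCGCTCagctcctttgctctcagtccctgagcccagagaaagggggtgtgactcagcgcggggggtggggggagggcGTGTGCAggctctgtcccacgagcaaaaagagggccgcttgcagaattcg
The window of Mt1 held 1 match and that of Mt2 held 3, none overlapping. Elements outside these windows, which are placed by the annotated start, were not counted. The counts therefore do not rank the genes by their number of elements. Of 32851 promoters in the table, 21.4% held at least 1 match and 1.26% held 3 or more. For the 8790 promoters of genes tested, the shares were 29.2% and 1.91%. A match is a description of these letters and no measure of MTF1 binding.

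Slc40a1, the iron exporter ferroportin, measured 7.35, 6.27, 6.39 and 7.76 in CMP, against 8.36, 8.38, 8.21 and 9.38 in GMP and 10.25, 10.17 and 10.37 in MEP. CMP was below both (-2.48 ± 0.31 against the midpoint, limma, adjusted p = 0.0176 below both sorts). That call ended in 5 of 24 alternatives. These were the fits without the filter, of only the 11 arrays, and without CMP replicate 2, CMP replicate 3 or GMP replicate 4. Abcb10, a mitochondrial transporter of erythroid cells, was lower by a smaller amount with tight replicates. It measured 7.54 to 7.85 in CMP, against 8.34 to 8.72 in GMP and 8.42 to 8.55 in MEP (-0.82 ± 0.10, limma, adjusted p = 0.000769 below both sorts). That call ended with the mean of probe sets (limma, adjusted p = 0.13). Stom, the membrane protein stomatin known from red cells, measured 7.04 to 7.50 in CMP, against 7.92 to 8.37 in GMP and 7.74 to 8.39 in MEP (-0.88 ± 0.13). Its call below both sorts ended in 4 of 24 alternatives, among them the fits of only the 11 arrays and without MEP replicate 3.

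Dstn measured 8.95, 8.33, 8.41 and 8.55 in CMP, against 10.25, 10.10, 10.56 and 10.91 in GMP and 9.55, 9.92 and 9.67 in MEP. Its difference from the midpoint was -1.52 ± 0.17, or 2.87-fold lower (limma, adjusted p = 0.00387 below both sorts). Ifngr1, the ligand-binding chain of the interferon gamma receptor, measured 9.52, 9.25, 9.42 and 9.45 in CMP, against 10.37 to 10.57 in GMP and 10.31 to 10.69 in MEP (-1.11 ± 0.13, limma, adjusted p = 0.000419 below both sorts). The HSC mean of Ifngr1 was 9.15, close to CMP. Gatm, which makes the creatine precursor guanidinoacetate, Sgpp1, a sphingosine phosphate phosphatase, Plin2, a lipid droplet coat protein, and Htra2, a mitochondrial protease, were lower by 0.72 to 0.91. The call of Gatm below both sorts ended without replicate 1 of every group. That of Sgpp1 ended in 3 of 24 alternatives and that of Htra2 in 0 of 24. Noct, Chchd10 and Tada2b were lower as well, with calls below both sorts that ended in 13 of 24, 11 of 24 and 14 of 20 alternatives. Rffl, Mfsd14b and Mrps36 made up the 16. Of the 16, 11 had a CMP mean above the HSC mean, and the share of all genes with such means was not computed.

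Genes of the granulocyte and monocyte branch were called in both directions. Genes called for GMP against MEP and at least 2-fold higher in GMP numbered 513. For these CMP was higher than the midpoint for 158 and lower for 74, with a median difference of 0.17. Against the linear midpoint, described further on, the same 513 genes gave 91 higher and 128 lower, with a median of -0.05. On that scale 6.09% of all genes were higher and 5.3% lower. Of 15 tested transcription factors of this branch, 5 were called higher and 0 lower, against 7.68% and 4.07% of all genes. Against the linear midpoint these factors gave 3 higher and 1 lower, with a median of -0.12. Csf1r measured 10.78, 11.01, 11.04 and 11.20 in CMP, against 11.48 to 11.57 in GMP and 7.65, 8.47 and 7.89 in MEP (1.25 ± 0.18; limma, adjusted p = 5.38e-05). Irf8, the interferon regulatory factor of the monocyte branch, measured 10.91, 11.01, 11.09 and 11.07 in CMP, against 11.11 to 11.25 in GMP and 8.81, 8.82 and 9.57 in MEP (0.90 ± 0.14). CMP arrays overlapped none of the MEP arrays for either gene, and the CMP and GMP means of Irf8 differed by 0.15. Spi1, which encodes PU.1, Cebpa, a factor required for granulocyte commitment, and Runx1 were higher than the midpoint by 0.68, 0.48 and 0.78, and the Runx1 call ended in 8 of 24 alternatives.

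Granule enzymes did not share one position between the sorts. The primary granule genes Mpo (myeloperoxidase) and Prtn3 (proteinase 3) were near their GMP level in CMP. Mpo measured 12.31, 12.39, 12.40 and 11.91 in CMP, against 12.91 to 12.95 in GMP and 9.78, 10.77 and 8.88 in MEP. It was 0.88 ± 0.27 above the midpoint (limma, adjusted p = 0.0365), a call that ended in 13 of 24 alternatives, and Prtn3 was 0.84 ± 0.16 above it. Elane, neutrophil elastase, was instead near its MEP level in CMP, at 8.36, 8.35, 8.70 and 8.84, against 12.36, 12.46, 12.70 and 12.89 in GMP and 7.07, 8.83 and 7.40 in MEP. Its difference of -1.62 ± 0.52 (adjusted p = 0.0456) lost the call in 17 of 24 alternatives, while the gap to GMP was -4.04 ± 0.58 (adjusted p = 3.27e-05). Ms4a3, a marker of GMP, measured 8.03 to 9.10 in CMP, against 11.91 to 12.18 in GMP and 6.27 to 7.84 in MEP (-0.99 ± 0.43, not called).

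Among 20 listed genes of primary granules and granulocyte progenitors 18 were tested, with 6 called higher and 2 lower than the midpoint. Among 25 monocyte and macrophage genes 19 were tested, with 7 called higher and 1 lower. Over all genes 7.68% were higher and 4.07% lower. Ly86, Ms4a6c, Tyrobp and Ctss were higher by 0.70 to 1.24, and Apoe, which was high in MEP, by 1.01. Chdh, a choline dehydrogenase, and Emb, a partner of monocarboxylate transporters, were among the largest differences of genes lying between the sorts, with CMP near GMP (1.34 ± 0.17 and 1.45 ± 0.23). At the other end, Gpc1, a glypican, was at 5.27 to 5.41 in CMP and at the floor in MEP, against 8.61 to 8.94 in GMP. Pglyrp1, a peptidoglycan-binding protein of later neutrophil granules, was at the floor on 3 of 4 CMP arrays and on all MEP arrays, against 7.59 to 8.98 in GMP.

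Genes of mature neutrophils were present at levels that varied within each sort. The log2 of the summed level of the late neutrophil list was 12.24 to 14.07 in CMP, against 12.57 to 14.47 in GMP and 12.59 to 14.20 in MEP, so the groups overlapped. S100a8, a calcium-binding protein of neutrophils, measured 12.49, 10.49, 12.15 and 11.89 in CMP, against 11.22 to 13.11 in GMP and 10.93 to 12.60 in MEP. Of 16 listed genes 12 were tested, with 1 called higher (Padi4, 1.44 ± 0.28) and 1 lower (Pglyrp1), against 7.68% and 4.07% of all genes. Itgam and Cd177 were at the floor on all CMP arrays.

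**Figure D3:**
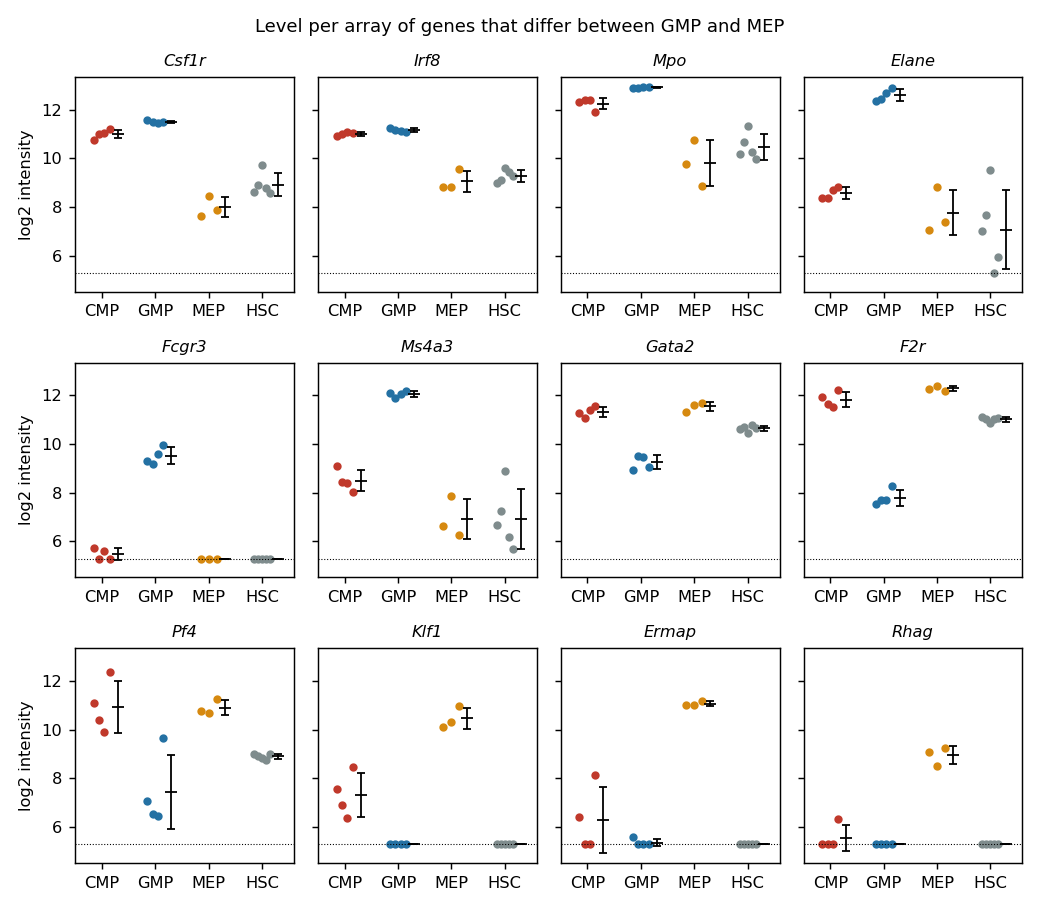
Log2 intensity on every array of CMP, GMP, MEP and HSC for 12 genes that differ between GMP and MEP, with the mean and SD beside the points and the floor of 5.27 dotted. CMP points lie near GMP for Csf1r, Irf8 and Mpo, near MEP for Elane, Fcgr3, Gata2, F2r and Pf4, and between both for Klf1, where CMP replicate 4 is the highest CMP array.

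Erythroid regulators and surface proteins stood at different places between GMP and MEP. Genes called for GMP against MEP and at least 2-fold higher in MEP numbered 267. CMP was higher than the midpoint for 53 of them and lower for 54, against 7.68% and 4.07% of all genes. Against the linear midpoint the counts for these 267 genes were 27 and 80, against 6.09% and 5.3% of all genes, with a median of -0.21. Gata1, the zinc finger factor of erythroid and megakaryocyte cells, measured 8.16, 7.57, 7.17 and 7.87 in CMP, against 5.72 to 6.21 in GMP and 9.36 to 9.52 in MEP, which is near the midpoint (-0.06 ± 0.18, adjusted p = 0.903). Gfi1b and Zfpm1 (FOG1), partners of GATA1, were at the floor in all GMP arrays and above the midpoint in CMP, both by 0.58. Klf1, the factor that switches on adult globin, measured 7.55, 6.88, 6.36 and 8.45 in CMP, against the floor in GMP and 10.11, 10.31 and 10.96 in MEP (-0.56 ± 0.24, not called).

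Several later erythroid genes were lower than the midpoint. Ermap, a red cell membrane protein, was at the floor on 2 CMP arrays and at 6.38 and 8.15 on replicates 1 and 4, against 5.27 to 5.56 in GMP and 10.99 to 11.17 in MEP (-1.93 ± 0.33; limma, adjusted p = 0.000434). Rhag, the Rh-associated glycoprotein, was at the floor on 3 CMP arrays and 6.32 on replicate 4, against the floor in GMP and 8.52 to 9.26 in MEP (-1.57 ± 0.16). With most CMP and all GMP arrays at the floor this size depends on the floor, and it was -1.10 and -1.75 with floors at the 50th and 10th percentiles. Car1, carbonic anhydrase 1, measured 9.21, 8.03, 7.39 and 10.31 in CMP, against 5.40 to 6.55 in GMP and 12.02 to 12.56 in MEP, and was not called. On each of these 3 genes CMP replicate 4 was the highest CMP array.

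Of 30 listed erythroid genes 24 were tested, with 4 called higher and 6 lower (Mt2 among them), against 7.68% and 4.07% of all genes, and without CMP replicate 4 the counts were 4 and 9. The log2 of the summed list was 13.39 to 13.76 in CMP, against 12.83 to 13.09 in GMP and 14.81 to 15.25 in MEP, with no overlap. Of 9 tested genes of haem synthesis 3 were lower and 0 higher. Cpox, coproporphyrinogen oxidase, and Alad were high in MEP, whereas Alas1, the first enzyme of the pathway in most tissues, was high in GMP, and CMP was lower than the midpoint for each (-1.19 ± 0.28, -0.45 ± 0.11 and -0.77 ± 0.13).

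The midpoint on the log2 scale is a geometric mean, which lies below the reading that an equal mix of GMP and MEP RNA would give. Against the linear midpoint, the mean of both intensities, 959 genes (11.4%) were called, with 513 (6.09%) higher and 446 (5.3%) lower. All 77 genes above both sorts and all 16 below both were called in the same direction. That direction was fixed in advance, since the linear midpoint also lies between both sorts. Calls for genes between the sorts changed with the scale. Of the 98 called genes higher in GMP with CMP nearer to GMP, 31 were higher than the linear midpoint, 1 was lower and 66 were not called. Csf1r (0.37), Mpo (0.17), Prtn3 (0.03) and Cebpa (0.00) were among the genes with no call on this scale, and Irf8 (0.55 ± 0.14) and F2r (0.48 ± 0.15) kept theirs.

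For erythroid genes the linear midpoint gave 0 higher and 13 lower of 24, with a median of -0.59, and Klf1 (-2.19 ± 0.29), Aqp1 (-1.61 ± 0.21), Car1 (-2.55 ± 0.45) and Gata1 (-0.90 ± 0.21) were then lower. For primary granule genes it gave 0 higher and 6 lower of 18, and for monocyte genes 2 and 2 of 19. Megakaryocyte genes kept 4 higher and 0 lower of 12, stem cell genes 8 and 1 of 21, and lymphoid genes 5 and 0 of 10. Fcgr2b, midway on the log2 scale, was lower on the linear one (-0.73 ± 0.19; limma, adjusted p = 0.0123).

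**Figure D4:**
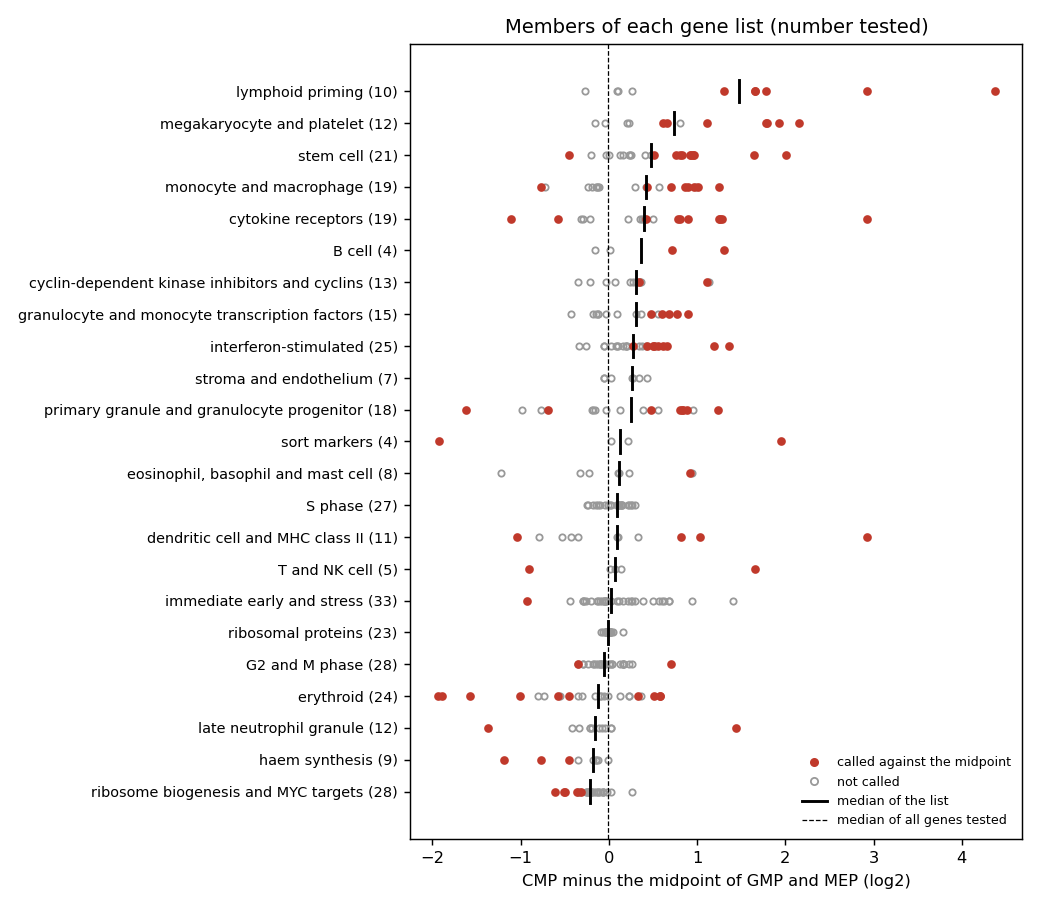
Each row is 1 of the 23 gene lists, ordered by its median, and each point is a tested member placed by its CMP difference from the midpoint in log2, filled where called at an adjusted p under 0.05. The lymphoid, megakaryocyte and stem cell lists have the highest medians (1.48, 0.73 and 0.48), and the median of all 8422 genes is the dashed line at -0.01.

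Proliferation genes lay close to the midpoint. Of 27 S phase genes 0 were called, with a median of 0.09, and of 28 G2 and M phase genes 1 was higher (Kif23, a motor protein of cell division, 0.71 ± 0.16) and 1 lower (Cks2, a partner of cyclin-dependent kinases, -0.35 ± 0.07). Over all genes 1928 had an unadjusted p under 0.05. Of 13 tested cyclins and inhibitors, Ccnd1, cyclin D1, was above both sorts, at 7.94, 8.07, 8.05 and 8.77 in CMP, against 7.13 to 7.54 in GMP and 6.49 to 7.14 in MEP (1.11 ± 0.18). That call ended in 13 of 24 alternatives, among them the replicate block. Cdkn2d was the other gene of that list called higher (0.35 ± 0.09). The 23 ribosomal protein genes had a median of -0.01 and 0 calls.

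Genes of ribosome biogenesis and MYC targets lay mostly below the midpoint. Of 28 tested, 26 lay below the midpoint and 5 were called lower (Rrp12, Srm, Noc4l, Eif4ebp1 and Cad), with 0 higher and a median of -0.21. Of all genes 4.07% were called lower, and 4089 of 8422 lay above the midpoint. Without replicate 1 of every group the calls were 2. Cad, the first enzyme of pyrimidine synthesis, measured 9.06 to 9.10 in CMP, against 9.09 to 9.35 in GMP and 9.42 to 9.72 in MEP. Srm, spermidine synthase, was lower than all GMP and MEP arrays on 3 of 4 CMP arrays (-0.51 ± 0.12).

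Interferon-stimulated genes lay mostly above the midpoint. Of 25 tested, 21 lay above the midpoint, 9 were called higher and 0 lower, with a median of 0.28, where 7.68% of all genes were called higher. Ifi27l2a measured 8.04, 8.08, 8.36 and 7.80 in CMP, against 5.65 to 7.47 in GMP and 6.06 to 7.04 in MEP (1.36 ± 0.25; limma, adjusted p = 0.0276 above both sorts), a call that ended in 9 of 24 alternatives, among them the fits without CMP replicate 1, 2 or 3. Rtp4 and Gbp2 were high in both CMP and MEP, with GMP the low sort, and Gbp3 was high in CMP and GMP. Irf1 (0.51 ± 0.14) and the immunoproteasome subunits Psmb8 (0.50 ± 0.14) and Psmb9 (0.43 ± 0.10) were higher by small amounts. The count of 9 dropped to 3 without CMP replicate 3 and to 2 without replicate 1 of every group.

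Immediate early and stress genes gave few calls, and replicate 1 of CMP and GMP was low, as given above. Egr1 measured 6.37, 11.97, 12.06 and 11.88 in CMP, against 5.87, 11.21, 10.37 and 9.54 in GMP and 11.77 to 12.14 in MEP, and its difference was -0.03 (limma, adjusted p = 0.993). Of 33 tested genes 0 were called higher and 1 lower, against 7.68% and 4.07% of all genes. The lower gene was Gadd45a, which was high in MEP (-0.93 ± 0.15). Of 7 tested stroma and endothelium genes and of 8 tested eosinophil, basophil and mast cell genes, 0 and 1 were called. The called gene was Gata2, which is also on the stem cell list. Cpa3, carboxypeptidase A of mast cells, measured 9.41 to 10.14 in CMP, against 9.23 to 9.62 in GMP and 7.50 to 8.93 in MEP, and was not called (0.94 ± 0.36).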

How the data were processed

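Total RNA from mouse marrow sorts was amplified, labelled with biotin and hybridised to Affymetrix arrays, per the labels' protocols. The authors deposited linear intensity values per probe set, which come from MAS5, per the submitters' processing notes (its version not given in the sources used here). The series holds a second experiment whose RNA was amplified on other days, and it was not used here.

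The 64 control probe sets were left out. Each of the 22 sorted arrays was scaled to a common trimmed mean (2% off each end), intensities under the 25th percentile (38.7) were raised to it, and log2 was taken. Probe sets above 108 on at least 3 arrays were kept. Of 22690 probe sets, controls included, 20380 others named 1 gene, 691 several and 1555 none, by the platform annotation, and the brightest kept probe set stood for each of 8422 genes. One limma 3.58.1 fit (R 4.3.3) over the 22 arrays gave CMP minus the mean of GMP and MEP, the larger p of both single comparisons (outside both sorts), and the difference from the linear midpoint. P-values were adjusted by Benjamini-Hochberg over all genes, with a threshold of 0.05, and errors are SE of the fit unless called SD. The steps were tested on simulated data.

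Genes were named by rule: the 12 highest and 12 lowest called outside both sorts, the 6 highest and 6 lowest called between them, the sort markers, and per list up to 4 called and 2 uncalled members. Other genes named are list members or genes called outside both sorts that were chosen after their values were seen. The members and the 23 lists were chosen with earlier results of these data known. After group means were removed, same-numbered arrays of different sorts correlated above 0.1 in 4 of 10 pairs, with a range of -0.35 to 0.44. These mixed values cannot decide whether the numbers pair the samples, and the main fit did not pair them. Alternatives changed the scaling, floor, filter, probe set rule, arrays in the fit, prior variance, covariates and weights, and left out arrays. Promoter sequences are from RefSeq.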

Additional observations from a re-analysis of the deposited data

Results flagged for a closer look

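In groups of 4 arrays, 29 of 250 gene and group combinations (11.6%) held an array far from the other arrays of its group. Chance gives about 1 in 20 for values that are not tied. Where all other arrays of the group were at the floor, any value above it was flagged. This was so for Aqp1, Col5a1, Dntt, Ermap, Gimap1, Pglyrp1, Rhag and Sphk1, so the share cannot be set against chance. Values are log2 intensities. CMP replicate 4 stood high for Ccnd1 (8.77), Col5a1 (6.24), Mt2 (8.53), Rhag (6.32), Sphk1 (5.81) and Srm (10.76). It stood low for Emb (9.87), Hdc (7.17), Mcpt8 (6.37) and Polr1a (8.11). CMP replicate 1 stood apart for Egr1 (6.37), Ighm (10.73), Il3ra (6.93), Pglyrp1 (5.59) and Rgs1 (8.12), and CMP replicate 3 for Blk (7.31).

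GMP replicate 1 stood apart for Aqp1 (5.61), Cdkn1a (5.60), Cpox (8.15), Ermap (5.56), Il3ra (6.93) and Rgs1 (5.27). GMP replicate 3 did so for Dntt (6.06), Gimap1 (5.57) and Rrm2 (10.82), and GMP replicate 4 for Gatm (10.94), H2-Eb1 (7.69), Rtp4 (6.50) and Slc40a1 (9.38). MEP, with 3 arrays, was not examined in this way.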

How the results depend on the processing

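Without scaling, 222 genes were lower than the midpoint. With only the 11 arrays, 24 genes were called outside both sorts (17 above, 7 below). Without replicate 1 of every sorted group, 221 were lower and 52 outside (45 above, 7 below). Leaving out 1 array at a time gave 636 to 1020 calls against the midpoint (447 to 720 higher, 189 to 381 lower), 43 to 103 outside both sorts (34 to 91 above, 9 to 21 below) and 615 to 1010 against the linear midpoint (331 to 586 higher, 284 to 479 lower). The counts that moved by over 1.5 times did so without CMP replicate 2 (194 lower, 51 outside, 632 linear), without CMP replicate 3 (636, 43 and 615), and, for genes below both sorts, without GMP replicate 4 or MEP replicate 3 (10 each). The cause was not tested. With the replicate block, 1069 genes were called against the midpoint, 928 of them shared with the 990, and 87 outside both sorts, 76 of them shared with the 93. Among named genes, Aqp1 (-0.47) and Mcpt8 (-0.42) reversed with a floor at the 50th percentile, Col5a1 (0.53) without the filter, where another probe set stood for it, and Vwf without CMP replicate 4, over a range of -0.59 to 0.63 when 1 array was left out. Values at the floor have no order, so differences of dim genes are compressed.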
